A study of Homo sapiens with 6 samples.

Results

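The transforming growth factor beta (TGF-β) superfamily is represented here by 10 genes. Of these, 6 encode ligands or ligand subunits (TGFB1, TGFB2, TGFB3, INHBA, INHBB and GDF15), 3 encode receptors (TGFBR1, TGFBR2 and ACVR1B) and 1 encodes a ligand-binding protein (FST). They were chosen by gene symbol, as the pathway around NODAL, the ligand at the centre of the study, and were found among the 27754 genes of the count files. The choice was made with earlier results of these data known. RNA was sequenced from T47D cells, an established luminal breast cancer line that expresses the estrogen receptor, kept in RPMI medium with 10% FBS as adherent cultures. The 3 normoxia libraries came from control cells in 20% O2 and the 3 hypoxia libraries from cells held in a chamber at 0.5% O2 for 48 h, as labelled. The text of the study names another O2 level for hypoxia, so the exact level is uncertain. The cells carried no labelled transgene or drug. A single line was used, and the labels do not say that the replicates were separate cultures. The study describes its data in general as coming from independent experiments and its hypoxia and normoxia samples as paired. The p-values measure the spread between these libraries.

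Ligands of this superfamily are secreted dimers that bring together a type II and a type I receptor, both serine/threonine kinases, and the type I receptor then phosphorylates SMAD proteins that enter the nucleus. The TGF-β ligands use TGFBR2 with TGFBR1. Activins, which are dimers of the INHBA or INHBB products, use the type II receptors ACVR2A or ACVR2B with ACVR1B, as does NODAL together with a co-receptor. Follistatin, the product of FST, binds activins and keeps them from their receptors. GDF15 is a distant relative that signals through GFRAL and RET rather than through SMAD-coupled receptors. In breast epithelium TGF-β is known both for restraining proliferation and, in carcinoma cells, for promoting invasion.

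The libraries held 32989104 to 89883409 counts, and hypoxia replicate 3 was the deepest. A count of 3, the floor used here for a detectable gene, equals 0.0334 to 0.0909 CPM across the libraries, before any scaling with edgeR's TMM factors. The filter cutoff given below is on the same unscaled basis. All other CPM values are normalised read counts scaled here to library size with the TMM factors. VEGFA and CA9, known targets of low oxygen, rose by 4.36 and 5.29 on the log2 scale (adjusted p = 5.16e-06 and 6.16e-05, edgeR quasi-likelihood test). Of 12 luminal breast markers, all detected, 7 fell and none rose. Those that fell were PGR (log2 fold change -2.93), ESR1, the estrogen receptor gene (-1.86), AGR2 (-1.80), SPDEF (-1.05), GATA3 (-0.74), XBP1 (-0.70) and FOXA1 (-0.55). KRT8, KRT18, KRT19, EPCAM and CDH1 did not pass, although with the replicate number as a block 9 markers were lower, KRT8 and KRT18 included, and 1, CDH1, was higher. Of all 15657 tested genes, 4551 were called lower and 4765 higher, and with the block 5511 lower and 5733 higher. Replicate 3 stood apart from replicates 1 and 2 in both conditions. The chi-square of the counts over genes, per degree of freedom, was 8.47 and 6.38 between replicates 1 and 2 of normoxia and of hypoxia, and 36.6 to 72.6 between replicate 3 and the others. Of 16 markers of mesenchymal-like and basal breast lines, 9 were highest in replicate 3 of both conditions, with 395 VIM counts in normoxia replicate 3 against 7 and 12 in normoxia replicates 1 and 2. The summed level of that list was 489 to 497 CPM in normoxia and 397 to 456 CPM in hypoxia, and none of the 16 was at 0 counts in all libraries, but LGALS1, GNG11 and CD44 made up most of it. The other 13 markers summed to 5.90, 8.17 and 28.4 CPM in normoxia replicates 1, 2 and 3 and to 44.2, 44.3 and 66.9 CPM in the hypoxia replicates, so their sum was highest in replicate 3 of each condition and higher in every hypoxia library than in any normoxia library. TGFB2, INHBA, INHBB, TGFBR2 and FST were also highest in replicate 3 of both conditions, 5 of the 10 genes against 29.1% of all tested genes. The part of these markers in the results was not tested, and values without both libraries numbered 3 are given for those 5 genes. In bulk RNA, fewer cells of a type and less RNA per cell cannot be told apart.

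All 10 genes passed the filter on low counts, so each was tested among 15657 genes. In hypoxia 7 of them rose and 1, TGFB3, fell, at an adjusted p under 0.05 (edgeR quasi-likelihood test, Benjamini-Hochberg over all tested genes). INHBB and TGFBR1 did not pass in this unpaired test, but both passed with the replicate number as a block. With the block 9 of the 10 were higher and 1 lower, against 5733 and 5511 of all 15657 tested genes. Without the block, 30.4% of all tested genes were called higher and 29.1% lower, so a call in either direction was frequent. With a log2 fold change of at least 1 as well, 6 of the 10 were higher, against 15.2% of all tested genes. The 3 hypoxia libraries lay wholly above the 3 normoxia libraries for 7 of the 10 genes, against 34.9% of all tested genes. The median log2 fold change was 1.83 over the 10 genes and 0.028 over all tested genes. Because the 10 genes were chosen with earlier results known, these comparisons with all tested genes are descriptions only. TGFBR2 and FST passed the filter mainly through hypoxia, since 1 and 0 of their normoxia libraries reached its cutoff of 0.261 CPM. Among the other 8 genes, 5 were higher and 1 was lower, 4 were higher with a log2 fold change of at least 1, 5 had all hypoxia libraries above all normoxia libraries, and the median log2 fold change was 1.05.

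**Figure D1:**
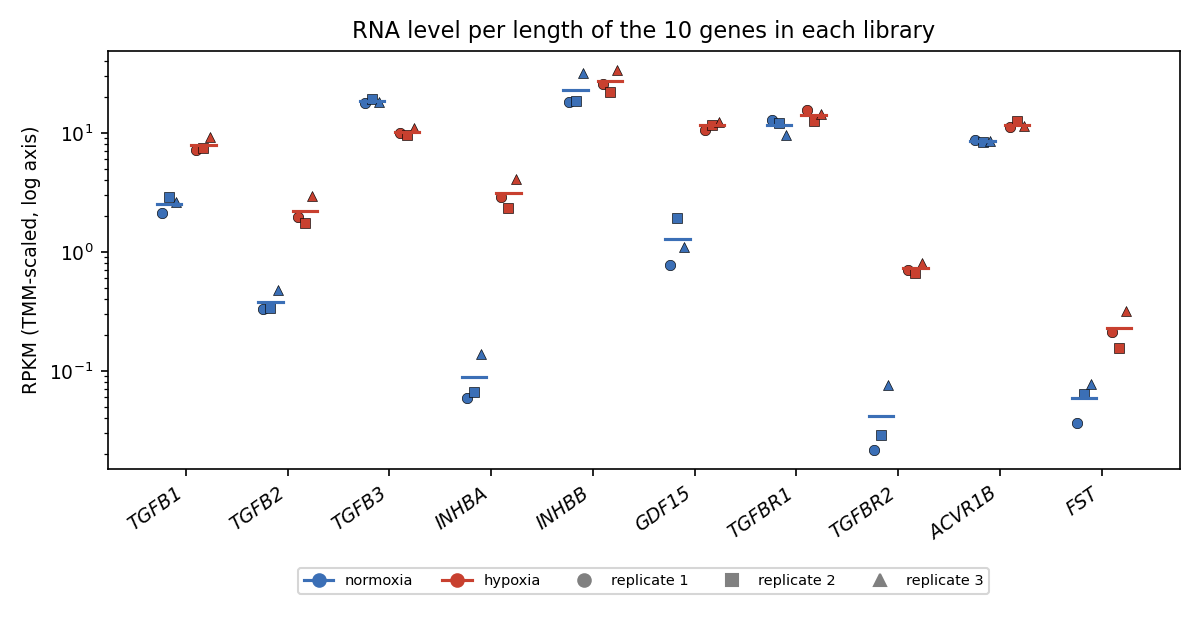
RPKM (CPM per kilobase of counted exon) on a log axis for the 10 genes, with 1 point per library, normoxia and hypoxia side by side and a bar at the mean of each condition. The hypoxia points sit above all normoxia points for 7 genes and below them for TGFB3, and the points of INHBB and TGFBR1 overlap.

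TGFB1 encodes the most widely studied TGF-β ligand. In the GRCh37 coordinates of its counted exons it lies at chr19:41836228-41859788, minus strand, 7 merged exons. It was measured at 5.80, 7.87 and 7.24 CPM in normoxia replicates 1, 2 and 3 and at 19.6, 20.3 and 25.4 CPM in the hypoxia replicates. The lowest hypoxia library was above the highest normoxia library. Its mean rose from 6.97 ± 1.06 to 21.8 ± 3.18 CPM (SD, n = 3), a 3.13-fold difference (log2 fold change 1.65, SE 0.158, adjusted p = 1.62e-04, edgeR). The log2 ratios of the same-numbered libraries were 1.76, 1.37 and 1.81.

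TGFB2 encodes a second TGF-β ligand, which needs the co-receptor betaglycan for efficient binding to TGFBR2. The gene lies at chr1:218518626-218617961, plus strand, 8 merged exons. Its level was 1.98, 2.04 and 2.84 CPM in the normoxia libraries and 11.7, 10.4 and 17.6 CPM in the hypoxia libraries. Replicate 3 was the highest of each condition, and the conditions did not overlap. TGFB2 rose 5.84-fold (log2 fold change 2.55, SE 0.248, adjusted p = 1.70e-04, edgeR), and its log2 fold change was 2.47 without both libraries numbered 3. Its counted exons share 1370 bases with TGFB2-OT1 on the same strand, which is listed at 0 counts in every library, and 181 bases with the antisense gene TGFB2-AS1. TGFB2-AS1 held 7, 11 and 4 counts in normoxia and 29, 34 and 109 counts in hypoxia. The strand setting of the counting was not given in the sources used here, so reads in the 181 shared bases may belong to either gene. Whether reads in the 1370 or 181 shared bases were left uncounted is not known here. If so, the RPKM of TGFB2, which divides by all its counted bases, would be too low.

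TGFB3, which encodes the third TGF-β ligand, was the only one of the 10 genes to fall. It lies at chr14:76424404-76449354, minus strand, 8 merged exons. The normoxia libraries held 71.6, 75.9 and 72.6 CPM and the hypoxia libraries 39.8, 38.2 and 43.8 CPM. All hypoxia libraries were below all normoxia libraries, and the spread within each condition was small beside the gap. The mean fell from 73.4 ± 2.29 to 40.6 ± 2.89 CPM, 1.81-fold lower (log2 fold change -0.85, SE 0.0826, adjusted p = 1.66e-04, edgeR). The same-numbered libraries gave log2 ratios of -0.85, -0.99 and -0.73.

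Levels of different genes were compared per length, as RPKM, that is CPM divided by the length of the counted exons in kilobases. TGFB3 supplied 88.1, 85.6 and 85.5% of the summed TGFB1, TGFB2 and TGFB3 RPKM in the normoxia libraries and 52.4, 51.3 and 47.5% in the hypoxia libraries. TGFB3 was thus the major TGF-β ligand RNA in normoxia and about level with the other two together in hypoxia. The share of TGFB1 was 10.3, 12.9 and 12.3% in normoxia and 37.4, 39.5 and 39.9% in hypoxia, a mean difference of 27.1 percentage points. The share of TGFB2 had a mean of 1.78 ± 0.377% in normoxia and 10.7 ± 1.72% in hypoxia. For each of the 3 shares the conditions did not overlap (exact permutation test, two-sided, p = 0.1, the smallest that 3 against 3 allows). The sum itself was 21.4 ± 0.934 RPKM in normoxia and 20.4 ± 2.48 RPKM in hypoxia, a difference of -1.02 RPKM that was within the spread of the libraries (exact permutation p = 0.6). The libraries of both conditions were thus apart in the composition of TGF-β ligand RNA and overlapped in its total.

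**Figure D2:**
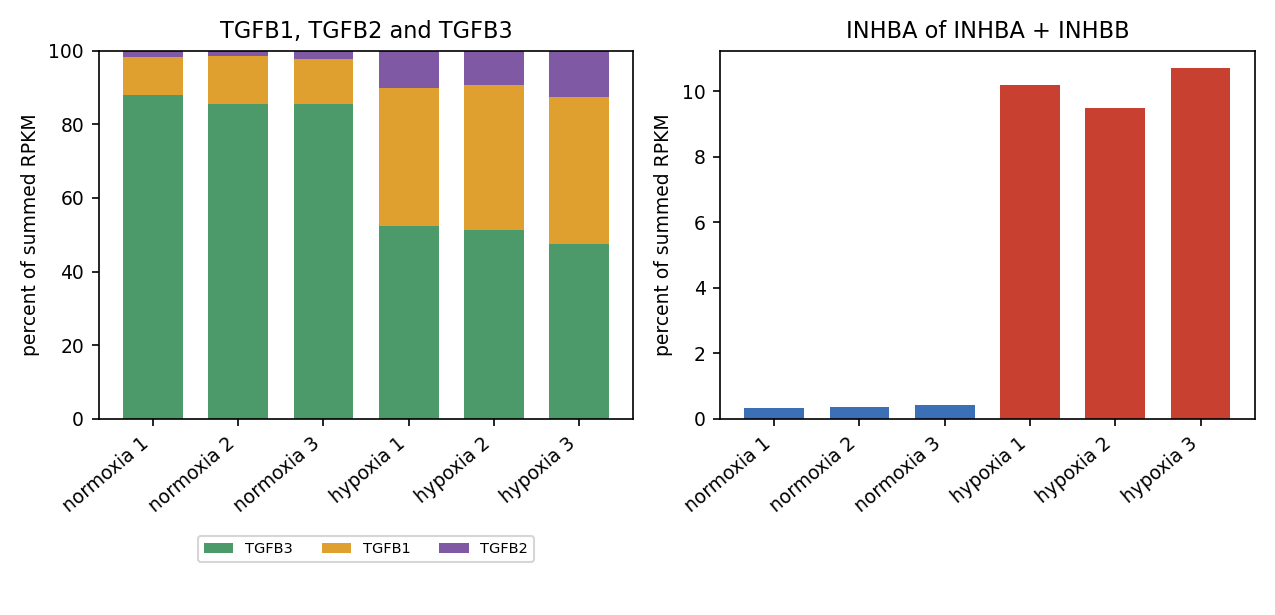
The left panel plots, for each of the 6 libraries, the percent of the summed TGFB1, TGFB2 and TGFB3 RPKM that each gene supplied, and the right panel the percent of the summed INHBA and INHBB RPKM that INHBA supplied. TGFB3 supplied at least 85.5% in normoxia and at most 52.4% in hypoxia, and INHBA at most 0.43% in normoxia and at least 9.49% in hypoxia.

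INHBA encodes the βA subunit, which forms activin A as a homodimer. The gene lies at chr7:41724712-41742706, minus strand, 3 merged exons. It was low in normoxia, with 14, 15 and 26 counts (0.355, 0.403 and 0.840 CPM), and reached 717, 518 and 2258 counts (17.7, 14.2 and 24.7 CPM) in hypoxia. INHBA had the largest rise of the 10 genes, 36.4-fold (log2 fold change 5.18, SE 0.346, adjusted p = 4.79e-05, edgeR), and ranked 70 from the top of the 15657 tested genes by log2 fold change. Replicate 3 was highest in both conditions, and the log2 fold change was 5.39 without both libraries numbered 3.

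INHBB encodes the βB subunit of activin B. It lies at chr2:121103718-121109384, plus strand, 2 merged exons. Its level was 57.9, 60.03 and 103 CPM in the normoxia libraries and 82.6, 71.4 and 109 CPM in the hypoxia libraries. Normoxia replicate 3 lay above hypoxia replicates 1 and 2, so the conditions overlapped. INHBB did not pass the test (log2 fold change 0.26, SE 0.243, adjusted p = 0.389, edgeR). The log2 ratios of the same-numbered libraries were 0.51, 0.25 and 0.08, all above 0, and INHBB passed with the replicate number as a block (log2 fold change 0.28, adjusted p = 0.0149) and without both libraries numbered 3 (0.39, adjusted p = 3.08e-04).

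INHBB remained the major activin subunit RNA in both conditions. INHBA made up 0.322, 0.354 and 0.430% of the summed INHBA and INHBB RPKM in the normoxia libraries and 10.2, 9.49 and 10.7% in the hypoxia libraries. The gap of 9.75 percentage points between the means exceeded the spread within conditions (exact permutation p = 0.1, the smallest possible), and without the correction for gene length it was 16.9 percentage points. The summed RPKM of both genes was 23.1 ± 7.95 in normoxia and 30.5 ± 6.91 in hypoxia (unpaired exact permutation p = 0.3). The overlap came from replicate 3, since the sum was 18.1, 18.8 and 32.2 RPKM in the normoxia replicates and 28.7, 24.6 and 38.1 RPKM in the hypoxia replicates, higher in hypoxia in 3 of 3 same-numbered pairs.

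GDF15 encodes a secreted protein that many cells release under stress. The gene lies at chr19:18496770-18499987, plus strand, 2 merged exons. It stood at 1.09, 2.71 and 1.55 CPM in the normoxia libraries and at 14.9, 16.2 and 17.5 CPM in the hypoxia libraries. Normoxia replicate 2 was the highest of its condition and still far below every hypoxia library. GDF15 rose 9.06-fold (log2 fold change 3.18, SE 0.291, adjusted p = 1.37e-04, edgeR), with log2 ratios of 3.78, 2.58 and 3.49 for the same-numbered libraries. Its own receptor gene GFRAL had 1 count in hypoxia replicate 2 and 0 counts in the other libraries. RET, the signalling partner of GFRAL, rose (log2 fold change 1.65, SE 0.438, adjusted p = 0.0125, edgeR) at a level of 3.73 CPM in hypoxia.

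Among the receptors, TGFBR2, the type II receptor that binds TGF-β, changed most. It lies at chr3:30647994-30735633, plus strand, 8 merged exons. The normoxia libraries held 4, 5 and 11 counts (0.101, 0.134 and 0.355 CPM) and the hypoxia libraries 134, 115 and 347 counts (3.31, 3.14 and 3.80 CPM). Every hypoxia library was above every normoxia library, and the normoxia libraries were little above the floor of 3 counts. TGFBR2 was 17.9-fold higher in hypoxia (log2 fold change 4.16, SE 0.381, adjusted p = 1.37e-04, edgeR). Pooled over libraries, 20 normoxia and 596 hypoxia counts gave a ratio of 19.0 with an exact 95% interval of 12.2 to 31.4, which covers counting error only. Normoxia replicate 3 held the most counts of its condition, and the log2 fold change was 4.75 without both libraries numbered 3.

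TGFBR1, the type I receptor that TGFBR2 recruits, lies at chr9:101867371-101916473, plus strand, 9 merged exons. Its level was 84.2, 79.9 and 62.6 CPM in normoxia and 101, 81.8 and 94.5 CPM in hypoxia. The lowest hypoxia library fell within the normoxia range. TGFBR1 did not pass the test (log2 fold change 0.29, SE 0.130, adjusted p = 0.0844, edgeR) but passed with the replicate number as a block (log2 fold change 0.30, adjusted p = 0.0235). The log2 ratios of the same-numbered libraries were 0.27, 0.03 and 0.59.

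ACVR1B, the type I receptor shared by activins and NODAL, lies at chr12:52345451-52390863, plus strand, 11 merged exons. It was measured at 41.6, 40.3 and 41.0 CPM in normoxia and 53.9, 60.2 and 54.9 CPM in hypoxia. The conditions did not overlap, and the normoxia libraries lay close together. ACVR1B rose 1.37-fold (log2 fold change 0.46, SE 0.0782, adjusted p = 0.00171, edgeR), the smallest of the 8 changes that passed.

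TGFBR2 RNA was far below TGFBR1 RNA. On the log2 scale, the ratio of TGFBR2 to TGFBR1 RPKM was -9.23, -8.74 and -6.99 in the normoxia libraries and -4.46, -4.23 and -4.17 in the hypoxia libraries. Its mean was 4.03 higher in hypoxia (exact permutation p = 0.1, the smallest possible), and it was below 0 in every library. The type II receptors for activins were also measured. ACVR2A was at 1.21 ± 0.125 RPKM in normoxia and 2.00 ± 0.277 RPKM in hypoxia, and ACVR2B at 1.68 ± 0.205 and 3.27 ± 0.382 RPKM. Both rose (ACVR2A log2 fold change 0.73, adjusted p = 0.00434, and ACVR2B 0.96, adjusted p = 5.59e-04, edgeR).

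**Figure D3:**
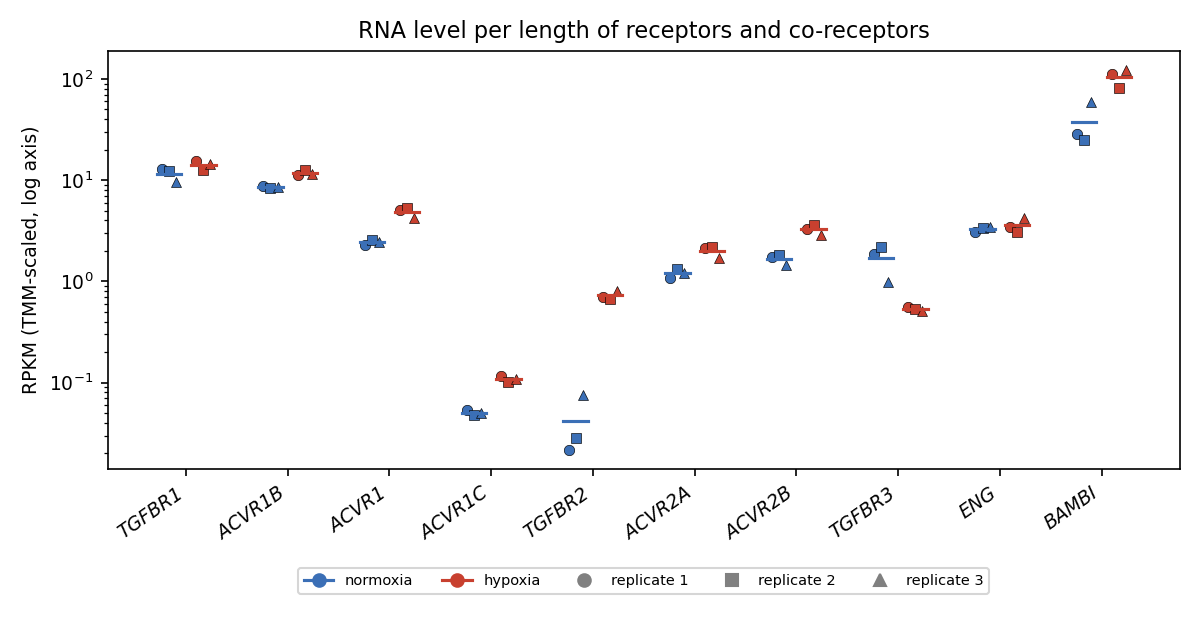
RPKM on a log axis for 10 receptor and co-receptor genes, with 1 point per library and a bar at the mean of normoxia and of hypoxia. TGFBR2 sits near 0.0419 RPKM in normoxia and 0.727 RPKM in hypoxia, below TGFBR1 in all 6 libraries, while TGFBR3 is lower in hypoxia.

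FST, at chr5:52776264-52782304, plus strand, 6 merged exons, was the least abundant of the 10 genes in hypoxia. Its counts were 3, 5 and 5 in normoxia and 18, 12 and 61 in hypoxia, or 0.0760, 0.134 and 0.162 CPM and 0.445, 0.328 and 0.667 CPM. All hypoxia libraries were above all normoxia libraries, but the normoxia counts were at or just above the floor. FST rose 4.04-fold (log2 fold change 2.02, SE 0.443, adjusted p = 0.00552, edgeR), and the pooled 13 and 91 counts gave a ratio of 4.47 with an exact 95% interval of 2.49 to 8.72 for counting error. The call was lost without both libraries numbered 1 (log2 fold change 1.79, adjusted p = 0.0610) and held without both numbered 3 (1.87, adjusted p = 0.00527). FST RNA per INHBA plus INHBB RNA had a log2 ratio of -8.62, -7.99 and -8.53 in normoxia and -7.02, -7.21 and -6.86 in hypoxia, 1.35 higher in hypoxia (exact permutation p = 0.1, the smallest possible). In this ratio 0.01 RPKM was added to both terms, and with 0.1 RPKM added the log2 ratio was 0.60 higher in hypoxia. The sum in the ratio is mostly INHBB, and FST and INHBA RPKM overlapped in normoxia. Against INHBA alone, FST RNA was lower in hypoxia than in normoxia. The mean RPKM of FST and INHBA was 0.0591 and 0.0878 in normoxia and 0.229 and 3.11 in hypoxia. FSTL3, which encodes a follistatin-like activin-binding protein, was more abundant, at 4.23 ± 0.742 RPKM in normoxia and 9.25 ± 2.33 RPKM in hypoxia, and rose (log2 fold change 1.14, adjusted p = 0.00211, edgeR).

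**Figure D4:**
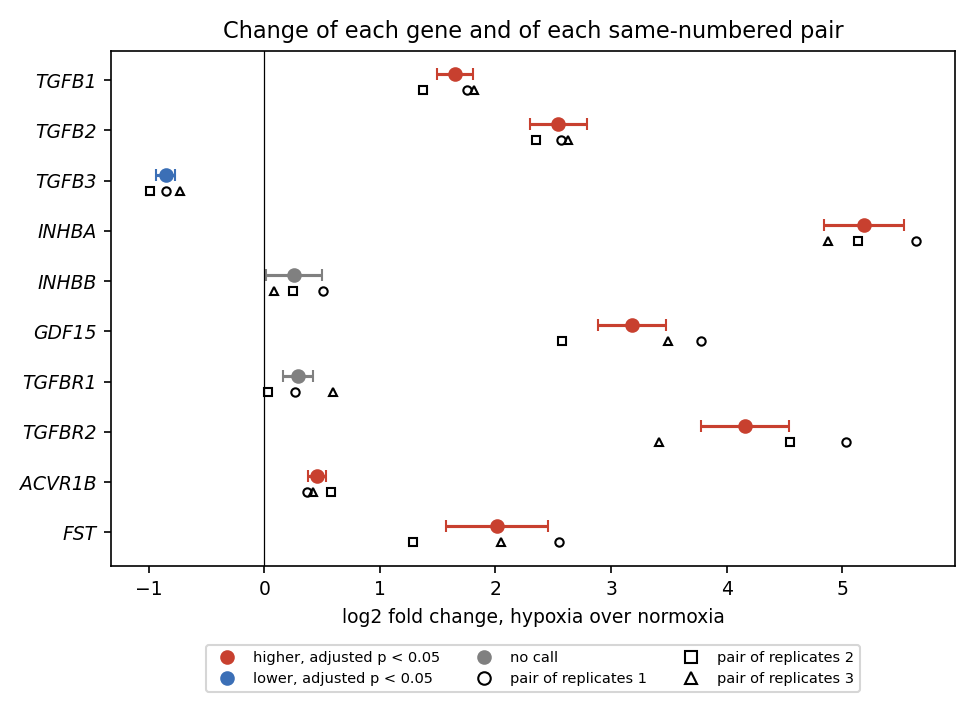
Log2 fold change of hypoxia over normoxia for the 10 genes, with bars for the SE of the edgeR fit, and below each the log2 ratios of the 3 same-numbered pairs of libraries. INHBA and TGFBR2 lie farthest to the right at 5.18 and 4.16, and TGFB3 alone lies left of 0, at -0.85.

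In normoxia the order of RPKM levels was led by INHBB at 23.0 ± 7.90 and TGFB3 at 18.5 ± 0.578 (SD, n = 3), whose libraries overlapped. TGFBR1 followed at 11.6 ± 1.75, ACVR1B at 8.52 ± 0.143, TGFB1 at 2.54 ± 0.387, GDF15 at 1.28 ± 0.598 and TGFB2 at 0.381 ± 0.0804 RPKM, each apart from its neighbours. INHBA, FST and TGFBR2 came last, at 0.0878 ± 0.0441, 0.0591 ± 0.0208 and 0.0419 ± 0.0294 RPKM, and neighbours among them overlapped. In hypoxia INHBB led alone at 27.4 ± 6.02 RPKM, and TGFBR1 came next at 14.2 ± 1.51. ACVR1B at 11.7 ± 0.704, GDF15 at 11.6 ± 0.908 and TGFB3 at 10.2 ± 0.727 RPKM overlapped as neighbours. TGFB1 followed at 7.95 ± 1.16 RPKM, then INHBA at 3.11 ± 0.885 and TGFB2 at 2.20 ± 0.633, which overlapped. TGFBR2 at 0.727 ± 0.0721 and FST at 0.229 ± 0.0822 RPKM were lowest. GDF15 was below TGFB1 in every normoxia library and above it in every hypoxia library, and TGFB3 was above TGFBR1 in every normoxia library and below it in every hypoxia library. These orders are descriptions, without a test.

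Sequence near the start sites was examined because hypoxia-inducible factors are known to bind a core of ACGTG. RefSeq windows reaching from 250 bases before to 50 bases after the first listed start of each gene were searched on both strands for ACGTG, and each of the 10 genes had a window in the table, which is of GRCh38.p14. The motif occurred in 4 of the 10 windows, those of TGFB2, TGFB3, TGFBR2 and ACVR1B, and in 21.6% of 27305 windows, 1 per gene. Of these 4 genes, 3 were higher and TGFB3 was lower in hypoxia, against 30.4% and 29.1% of all tested genes. The windows of TGFB1, INHBA, INHBB, GDF15, TGFBR1 and FST hold none of these letters in this order. Of these genes without the motif, TGFB1, INHBA, GDF15 and FST were also higher, and INHBB and TGFBR1 did not pass. Whether the motif bears on the changes was not tested. Each match is given with up to 10 flanking bases, in the direction of the gene, 5′ to 3′. Capitals mark ACGTG or its reverse complement CACGT, and CACGTG holds both. Coordinates were found by exact match to GRCh37, and positions count from the RefSeq start.
TGFB2, chr1:218518596-218518620, plus strand, position -72: gtaatcctagCACGTcactttgttg
TGFB2, chr1:218518619-218518644, plus strand, position -49: tgaaggcagaCACGTGgttcagagag
TGFB3, chr14:76449359-76449384, minus strand, position -20: tgcggggagcCACGTGccctaccctc
TGFBR2, chr3:30647791-30647815, plus strand, position -47: actagggaaaACGTGgacgttttct
ACVR1B, chr12:52345387-52345412, plus strand, position -86: gccgggagcgCACGTGcaggcgccgg

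A match describes the letters only and shows no binding. The core of the SMAD-binding element, CAGAC, was searched in the same way and occurred in 5 of the 10 windows, those of TGFB2, TGFB3, INHBA, GDF15 and TGFBR1, against 45.0% of all windows.

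The rest of the pathway was described with 88 further genes in 6 lists, some of them in 2 lists, of which 73 were tested. In hypoxia 48 of the 73 rose, 5 fell and 20 did not pass, with a median log2 fold change of 0.95. Over all tested genes 30.4% were called higher and 29.1% lower, with a median of 0.028. The counts of each list are to be read beside these shares. INHBC, INHBE, PCSK5 and COL4A1, all called higher, were under the filter cutoff of 0.261 CPM in every normoxia library. They passed the filter only through hypoxia. The lists were chosen with earlier results of these data known, so these comparisons are descriptions only. Among other ligands, 4 of the 5 tested genes rose and none fell, although GDF11 was called lower with the replicate number as a block (log2 fold change -0.47, adjusted p = 0.00136, edgeR; -0.45 and 0.0583 without it). INHBE, which encodes the activin βE subunit, rose from 0.0509 to 1.61 RPKM (log2 fold change 4.91, SE 0.301, adjusted p = 3.99e-05, edgeR), INHA, which encodes the inhibin α subunit, changed by 1.55, adjusted p = 0.00103, and GDF9 by 1.14, adjusted p = 0.0111 on the log2 scale. NODAL itself had 3 counts in hypoxia replicate 2 and 0 counts in the other 5 libraries, at or under the floor in each, so no difference was detectable at this depth and it was not tested.

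Of 7 tested other receptors and co-receptors, 5 rose and 1 fell. BAMBI, a pseudoreceptor that inhibits TGF-β and activin signalling, rose (log2 fold change 1.49, SE 0.326, adjusted p = 0.00540, edgeR) to 105 ± 22.2 RPKM, above each of the 3 receptor genes described above. ACVR1, a type I receptor for bone morphogenetic proteins and activins, rose by 1.01 on the log2 scale. TGFBR3, which encodes betaglycan, fell (log2 fold change -1.67, SE 0.274, adjusted p = 0.00142, edgeR). Its counts were 504, 556 and 209 in normoxia and 152, 132 and 317 in hypoxia. Scaled to depth, these were 12.8, 14.9 and 6.75 CPM and 3.76, 3.61 and 3.47 CPM. All hypoxia libraries were thus below all normoxia libraries, with normoxia replicate 3 the lowest of its condition.

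Of 14 tested genes for latency, activation and ligand binding, 10 rose and 2 fell. BGN, which encodes the matrix proteoglycan biglycan, rose by 5.08 on the log2 scale (SE 0.388). Its counts were 5, 12 and 2 in normoxia and 244, 248 and 485 in hypoxia. Normoxia replicates 1 and 3 were under the filter cutoff of 0.261 CPM, so BGN passed the filter mainly through hypoxia. ITGB6, a subunit of the integrin that activates latent TGF-β, rose by 3.57 and PCSK6, a proprotein convertase, by 2.25. The 2 genes that fell were THBS1 (log2 fold change -1.75, adjusted p = 1.56e-04, edgeR), whose product can activate latent TGF-β, and LTBP1 (-1.29, adjusted p = 7.44e-05, edgeR), which encodes a protein that holds latent TGF-β in the matrix.

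All 19 SMAD proteins and regulators were tested, and 11 rose and 2 fell, with a median log2 fold change of 0.26. PMEPA1, an inhibitor of SMAD signalling, rose by 1.90 on the log2 scale, SMAD3 by 1.78 and the corepressor TGIF1 by 1.38. The ubiquitin ligase NEDD4L (-0.57, adjusted p = 4.32e-04) and the receptor-associated protein STRAP (-0.39, adjusted p = 0.00476, edgeR) fell. The inhibitory SMAD7 did not pass (log2 fold change 0.20, SE 0.157, adjusted p = 0.298, edgeR).

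Of 22 tested SMAD2/3 target genes, 13 rose and none fell. TGFBI, an extracellular matrix protein named for its induction by TGF-β, rose by 6.18 on the log2 scale (SE 0.214, adjusted p = 5.90e-06, edgeR), with 66, 60 and 38 counts in normoxia and 3983, 3398 and 12605 in hypoxia. CDKN1A, a cell cycle inhibitor, rose by 2.65 on the log2 scale. Many genes of this list also respond to other signals. Of 11 tested genes linked to GDF15 or to cell stress, 9 rose and none fell, among them DDIT3 (2.71) and CHAC1 (2.24), both known targets of the integrated stress response.

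**Figure D5:**
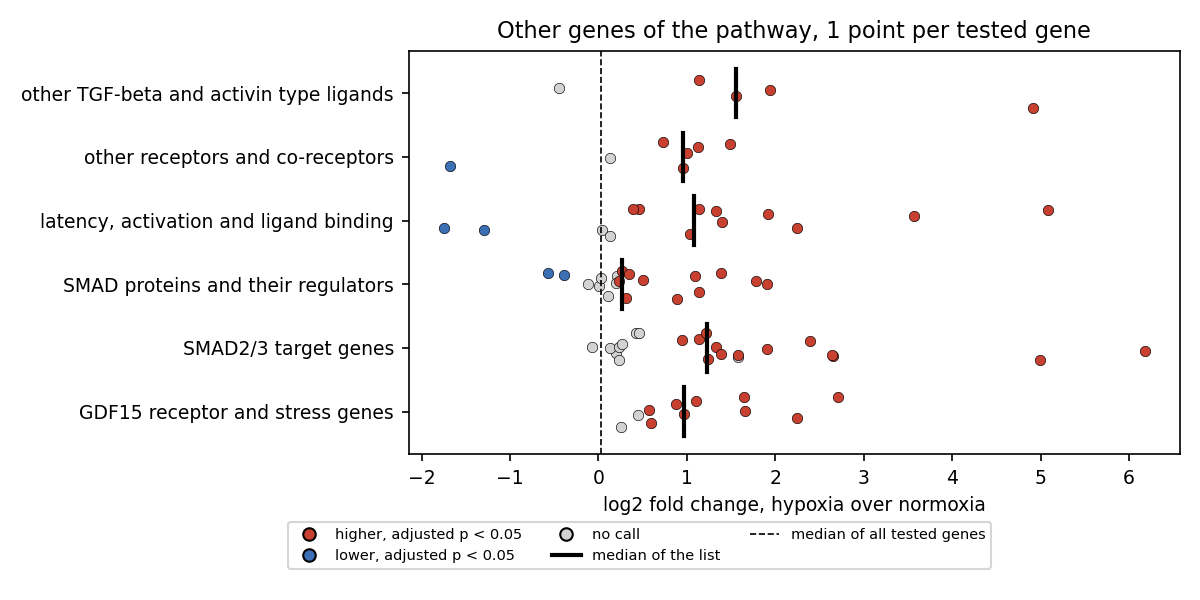
Log2 fold change of hypoxia over normoxia for each tested gene of the 6 further pathway lists, with 1 row per list, colours for higher, lower and no call, black bars at the median of each list and a dashed line at the median of all tested genes. A gene in 2 lists is drawn in both. Higher calls outnumber lower calls in each list, with 48 higher and 5 lower among the 73 genes.

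The genes whose pattern over the 6 libraries was most like that of each member were found by Pearson's r of log2 CPM among 12656 genes whose counts averaged 100 or more. The 6 libraries share 2 conditions, so any gene with a steady change scores high. For INHBB and TGFBR1, which overlapped between conditions, 5 and 2 genes reached r of at least 0.98, and the closest were WNT10B and SYNM, both at r = 0.991. For the other 8 members 40 to 598 genes did so. The closest were TMEM45B to TGFB1, PKD1 to TGFB2, CCDC78 to TGFB3, LOC100652758 to INHBA, NUMB to GDF15, SPRY1 to TGFBR2, HOXC-AS3 to ACVR1B and RGMB to FST.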

How the data were processed

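Per the labels, total RNA from T47D cells was made into stranded mRNA libraries, 3 from normoxia and 3 from hypoxia. The submitters' processing notes name FastQC 0.11.5, STAR 2.5.2a, featureCounts 1.5.1 and hg19, and the methods of the study also name Skewer and RefSeq genes. The authors deposited raw read counts per gene, 1 file per library, with the exon coordinates and the union exon length of each gene. How strand and reads that match several places were handled was not given in the sources used here.

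Genes were kept with edgeR's filterByExpr (minimum count 10, minimum total 15), and edgeR's quasi-likelihood test was run on 15657 of 27754 genes (edgeR 4.0.16, limma 3.58.1, R 4.3.3), TMM factors and condition as the only term, with Benjamini-Hochberg adjustment over all tested genes at 0.05. The methods of the study name edgeR's exact test, which was an alternative, as was DESeq2 1.42.0. CPM and RPKM were computed here from the counts, TMM factors and lengths. Shares and ratios, with 0.01 RPKM added in the FST ratio, were compared by exact permutation tests, two-sided. Libraries with the same number deviated together from the condition means (correlations across genes of 0.338, 0.422 and 0.575), so the numbers were taken to pair the libraries, and the replicate number was a block in an alternative. The scripts were tested on simulated data. Python 3.11.15 with matplotlib 3.10.9 made the plots.

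The 10 genes, the pathway lists and the marker lists were chosen with earlier results of these data known. Genes named are the 10 members, NODAL, VEGFA, CA9, the closest gene in pattern to each member and, per pathway list, up to 3 called genes of largest change in each direction with a mean of at least 100 counts, of which 1 is not reported here. GFRAL, ACVR2A, FSTL3, GDF11, SMAD7, INHBC, PCSK5, COL4A1, TGFB2-OT1, TGFB2-AS1 and the markers named were chosen beside this rule, after their values were seen. No protein sequences were used here. Depth limits TGFBR2 and FST most, at 3 to 11 counts in each normoxia library.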

Additional observations from a re-analysis of the deposited data

How the results depend on the processing

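TGFB1, TGFB2, TGFB3, INHBA, GDF15, TGFBR2 and ACVR1B kept their direction and their call under all 15 alternatives (edgeR's exact test, DESeq2, other scaling factors, no filter, a replicate block and libraries left out), and none of the 10 genes reversed. Without both libraries numbered 1, 6 genes were called higher, and with the replicate block 9 were, since INHBB (log2 fold change 0.28, adjusted p = 0.0149, edgeR) and TGFBR1 (0.30, adjusted p = 0.0235) then passed. Of all tested genes, 2648 of 15713 were called higher without both libraries numbered 1. With the block 5733 of 15657 were called higher and 5511 lower, against 4765 and 4551 in the main test. The block changed no other call among the 10. FST lost its call without both libraries numbered 1. INHBB also passed without normoxia replicate 3 (0.57, adjusted p = 0.0209), and TGFBR1 with upper-quartile factors (0.44, adjusted p = 0.0245). Over the 15 alternatives the adjusted p ranged from 3.08e-04 to 0.834 for INHBB, from 0.0235 to 0.253 for TGFBR1 and from 3.34e-04 to 0.0610 for FST. Upper-quartile factors moved the median log2 fold change of all tested genes from 0.028 to 0.19. With them 5972 genes were called higher and 3285 lower, so that 64.5% of the calls were higher. The main test called 4765 genes higher and 4551 lower. With a log2 fold change of at least 1 required, 0 of the 10 genes and 3 of the 73 tested other pathway genes were called lower. TGFB3 changed by less than that. Such a fall was infrequent among all tested genes too, at 768 of 15657. Without gene length, the TGFB1 share rose by 20.4 and the INHBA share by 16.9 percentage points. With 0.1 RPKM added, the log2 FST ratio was 0.60 higher in hypoxia, since FST lay near or under that value. The cause of the other changes was not tested. Depth limits TGFBR2 and FST, with 20 and 13 normoxia counts in all.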

Other observations

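Summed levels of 2 marker lists of other cell types rest on 1 gene each. The fibroblast list had 84.5 to 96.0 CPM in normoxia and 78.3 to 101 CPM in hypoxia, nearly all of it COL1A1, which did not pass the test (log2 fold change -0.07, adjusted p = 0.616, edgeR). The other 8 genes of that list summed to 0.242 to 0.840 CPM in normoxia and 1.36 to 1.48 CPM in hypoxia. Of the list 3 genes were tested and 6 were not, and 2 of the 3 rose, against 30.4% of all tested genes. Those that rose, THY1 and PDGFRB, were under the filter cutoff of 0.261 CPM in every normoxia library. They passed the filter only through hypoxia. The endothelial and immune list had 1.39 to 1.67 CPM in normoxia and 6.92 to 8.72 CPM in hypoxia, nearly all of it CD68, its only tested gene, which rose from 1.31 to 6.80 CPM. The other 7 genes of that list summed to at most 0.452 CPM in normoxia and 0.875 CPM in hypoxia. The luminal list summed to 16493 to 20336 CPM in normoxia and 11473 to 14527 CPM in hypoxia. Of 12 tested genes of the mesenchymal-like and basal list, 3 rose and 1 fell, and with the replicate block 5 rose and 1 fell. Over all 15657 tested genes 30.4% were called higher and 29.1% lower, and with the block 5733 genes were higher and 5511 lower.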
